A study of Rattus norvegicus with 9 samples.

Results

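The 10 genes described here act in the removal of damaged mitochondria or in the making of new ones, and they were picked by name: Pink1, Bnip3, Bnip3l, Fundc1, Sqstm1, Optn and Map1lc3b for mitophagy, and Ppargc1a, Tfam and Polrmt for mitochondrial biogenesis. Each symbol matched 1 entry of the 32883 in the gene table, and all 10 passed the filter on low counts, which kept 15517 genes. Their mRNA levels were compared in the vestibular sensory epithelium of male Long-Evans rats exposed to 3,3'-iminodipropionitrile (IDPN), a nitrile that damages the hair cells (HC) of the inner ear. Rats of the IDPN-3wk and IDPN-7wk groups drank water with 20 mM IDPN for 3 or 7 weeks, and Control rats drank plain water. The Control group was shared by both exposures and, by the study's methods, held animals taken at each of the 2 times. The labels do not say which Control library belongs to which time. Length of exposure and time of collection therefore cannot be told apart in IDPN-7wk against IDPN-3wk. The labels give the strain as the genotype and name no allele or other agent in any group, and the age of the rats in this experiment is not given in the sources used here. Each of the 9 libraries, 3 per group, held RNA pooled from the 6 cristae and 2 utricles of 1 rat, so every value is an average over sensory and non-sensory cells.

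Mitophagy is the selective digestion of mitochondria by autophagy. On mitochondria that have lost their membrane potential, the kinase PINK1 builds up and marks the outer membrane with phosphorylated ubiquitin. The adaptors p62 (gene Sqstm1) and optineurin (Optn) bind ubiquitin on one side and LC3 (Map1lc3b among others) on the growing autophagosome on the other. A separate route uses receptors that sit in the outer membrane and bind LC3 themselves, among them BNIP3, NIX (Bnip3l) and FUNDC1. New mitochondria need the coactivator PGC-1α (Ppargc1a), which drives nuclear genes for mitochondrial proteins, while TFAM packages mitochondrial DNA and, with the RNA polymerase POLRMT, starts its transcription. HCs are rich in mitochondria. The study raised Pink1 because the stress-induced transcription factor Atf3 had been proposed to repress it in an auditory cell line. For its own experiments, the study reported no change of Pink1.

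Levels are given as CPM, counts scaled to a common library total, after TMM normalization between libraries, and as mean ± SD of 3 rats. CPM are not corrected for transcript length, so levels were compared between libraries and not between genes. Library totals ran from 31100118 to 46018385 counts, and 3 counts, taken as the floor, corresponded to 0.0611 to 0.101 CPM. The reads carry no molecular identifiers, so this floor covers counting error only. The lowest member count in any library was 311, for Map1lc3b. A differentially expressed gene (DEG) had an adjusted p under 0.05 by the quasi-likelihood test of edgeR, with Benjamini-Hochberg adjustment over all 15517 genes, and a fold change above 1.5. HC markers were plentiful in Control libraries, with a summed level of 1990 to 2130 CPM for 13 markers, and so were supporting cell markers with 16840 to 17110 CPM for 13 markers. Myelin genes were as easy to detect, with 4133 to 5455 CPM for 7 Schwann cell markers in Control libraries.

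The libraries fell into 2 sets that crossed the groups, and the levels of 2 of the 10 genes did not overlap between the sets. At an equal depth of 31100118 counts, 15387 to 15498 genes were detected in Control 3, IDPN-3wk 1 and IDPN-3wk 2, and 16834 to 17312 genes in the other 6 libraries. All IDPN-7wk libraries were in the set with more genes. Pink1 lay between 384.4 and 492.7 CPM in the set with fewer genes and between 77.0 and 249.7 CPM in the other libraries. Its mean over the set with fewer genes was 2.56 times that over the others (455 against 177.5 CPM). Fundc1 went the other way, with 42.9 to 46.4 CPM in the set with fewer genes and 58.7 to 75.1 CPM in the others, whose mean was 1.49 times higher. The other 8 genes overlapped between the sets. Over all 15517 genes, 10.3% had sets that did not overlap. Group differences of these genes are therefore also given within a set. Sample titles share a code among all Control libraries, between IDPN-3wk 2 and 3, between IDPN-7wk 2 and 3, and between IDPN-3wk 1 and IDPN-7wk 1. What the code stands for is not given in the sources used here, and since it largely follows the groups, the 2 cannot be told apart.

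**Figure D1:**
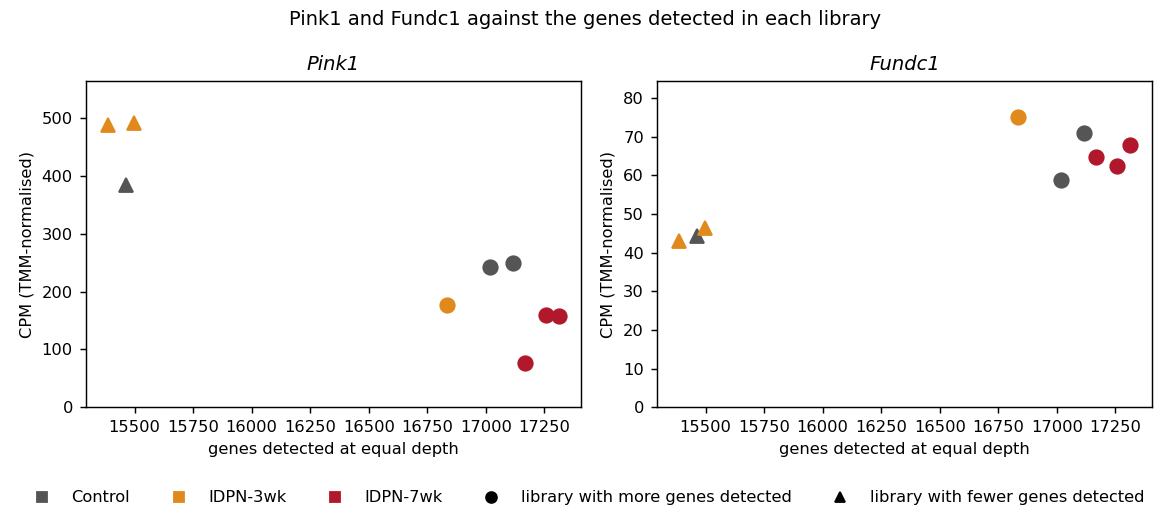
Level of Pink1 and Fundc1 (CPM after TMM normalization, y axis) against the number of genes detected in each library at equal depth (x axis), 1 point per library, coloured by group and shaped by library set. The 3 libraries with fewer genes hold the 3 highest Pink1 levels (384.4 to 492.7 CPM) and the 3 lowest Fundc1 levels (42.9 to 46.4 CPM).

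None of the 10 genes was a DEG in any comparison by edgeR, against 1.65% of all genes tested at 3 weeks, 5.13% at 7 weeks and 0.483% between the 2 exposures. Sqstm1 was the single member with an adjusted p under 0.05, in IDPN-7wk rats, where its fold of 1.417 stayed under the threshold of 1.5. At that looser rule, the background was 1.88% of genes at 3 weeks, 6.09% at 7 weeks and 0.503% between exposures, and 0, 1 and 0 members met it. An unadjusted p under 0.05 was reached by 3 of 10 members in each comparison, and by 15.8%, 19.3% and 13.8% of all genes. Groups did not overlap for 3, 4 and 4 of the 10 members, where the shares over all genes were 19.6%, 34.3% and 21%. The members' median log2 fold change was -0.01 at 3 weeks, 0.11 at 7 weeks and 0.12 between exposures, against medians over all genes of -0.000467, 0.0097 and 0.0082. With DESeq2 the calls differed in part: 2 members had an adjusted p under 0.05 at 3 weeks (Bnip3 and Tfam), 2 at 7 weeks (Sqstm1 and Bnip3) and 1 between exposures (Pink1), of which only Pink1 was past the fold threshold.

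**Figure D2:**
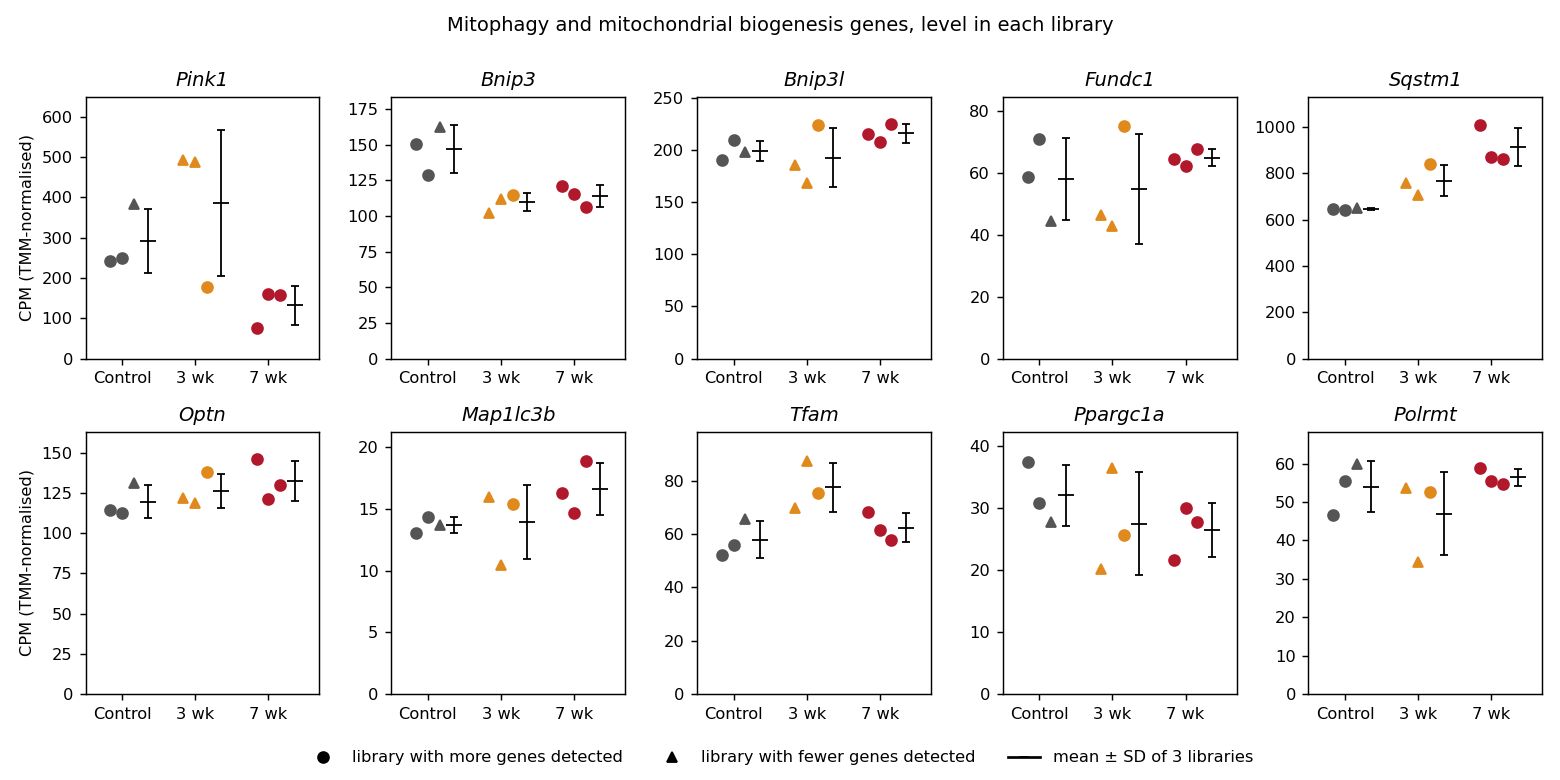
Level of each of the 10 genes (CPM after TMM normalization, y axis from 0) in the 9 libraries, grouped as Control, IDPN-3wk (3 wk) and IDPN-7wk (7 wk); triangles are the libraries with fewer genes detected and bars are mean ± SD. Sqstm1 has group means of 645.8, 769.0 and 914.8 CPM with no overlap between groups, whereas Pink1 spreads from 177.8 to 492.7 CPM inside the IDPN-3wk group.

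**Figure D3:**
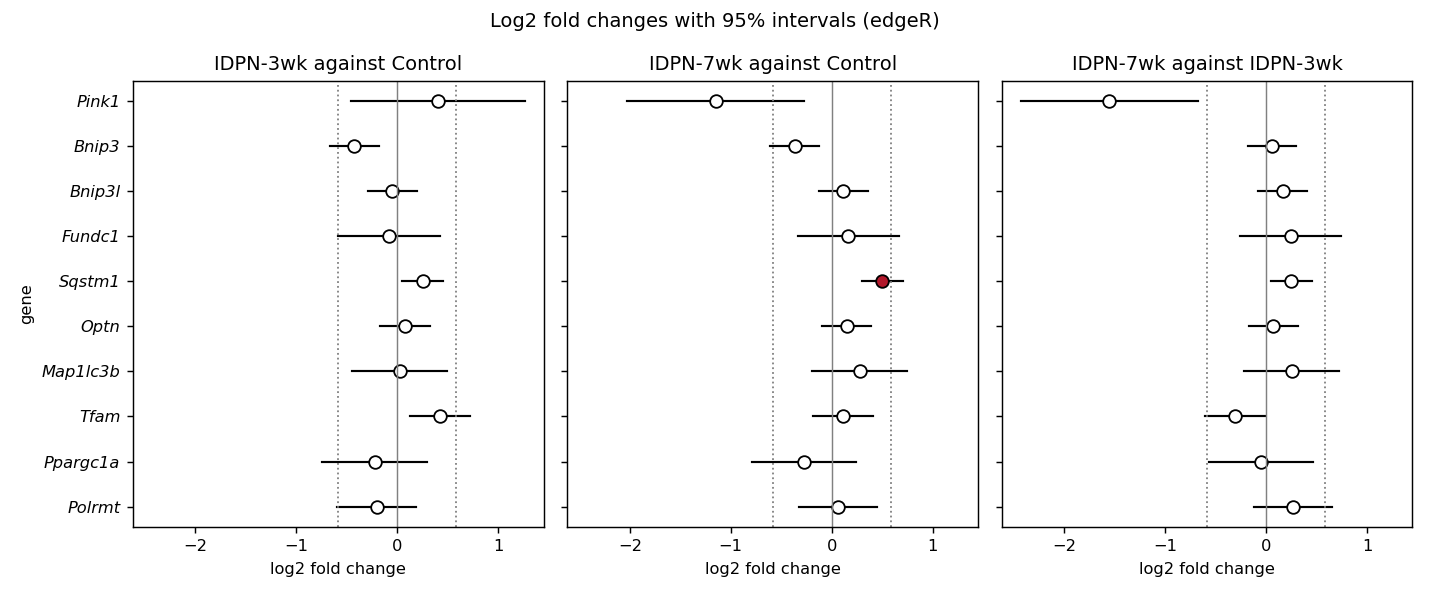
Log2 fold change (x axis) of each gene (y axis) in the 3 comparisons, with 95% intervals from the edgeR fit; dotted lines mark a fold change of 1.5 and a filled point an adjusted p under 0.05. Sqstm1 in IDPN-7wk against Control (0.50) is the only filled point, and Pink1 has the widest intervals.

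Promoter sequences are shown for the 4 genes on which the results turn, Pink1, Bnip3, Sqstm1 and Tfam, since each had groups that did not overlap and an unadjusted p under 0.05 against Control. They are the 250 bases upstream of the RefSeq start site in the GRCr8 assembly, written 5′ to 3′ in the direction of transcription. Capitals mark CACGTG, an E-box searched without flanking bases, in Pink1 and Bnip3, and CCGGAAG, an ETS site, in Tfam. Sqstm1 has no capitals because none of the motifs searched was found there.
Pink1 promoter, GRCr8 chr5:155825951-155826200, minus strand: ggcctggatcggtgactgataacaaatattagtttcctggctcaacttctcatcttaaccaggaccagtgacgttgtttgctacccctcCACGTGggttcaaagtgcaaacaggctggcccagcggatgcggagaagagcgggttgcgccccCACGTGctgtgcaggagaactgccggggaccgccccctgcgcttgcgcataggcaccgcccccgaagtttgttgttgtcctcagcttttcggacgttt
Bnip3 promoter, GRCr8 chr1:203154963-203155212, minus strand: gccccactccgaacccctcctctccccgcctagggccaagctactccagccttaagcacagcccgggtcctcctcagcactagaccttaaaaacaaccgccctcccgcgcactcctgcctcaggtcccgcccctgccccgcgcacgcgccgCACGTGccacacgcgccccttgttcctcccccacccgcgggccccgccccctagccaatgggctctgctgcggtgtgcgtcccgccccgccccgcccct
Sqstm1 promoter, GRCr8 chr10:35037751-35038000, minus strand: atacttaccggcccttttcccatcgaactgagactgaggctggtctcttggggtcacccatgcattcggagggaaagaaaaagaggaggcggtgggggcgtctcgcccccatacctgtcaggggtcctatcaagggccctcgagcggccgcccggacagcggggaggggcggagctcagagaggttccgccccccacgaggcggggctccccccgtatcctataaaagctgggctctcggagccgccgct
Tfam promoter, GRCr8 chr20:17355123-17355372, plus strand: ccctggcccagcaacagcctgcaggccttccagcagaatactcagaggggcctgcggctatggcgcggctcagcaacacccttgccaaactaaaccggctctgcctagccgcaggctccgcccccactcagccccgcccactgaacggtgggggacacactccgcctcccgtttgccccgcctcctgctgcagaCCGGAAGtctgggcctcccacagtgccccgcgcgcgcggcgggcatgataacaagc

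RefSeq windows of 300 bases (250 before to 50 after the start) were found for 8 of the 10 genes, Bnip3l and Fundc1 being the others, among 33469 windows in all. Both strands were searched, and matches are descriptions of letters, not of binding. CACGTG stood at 2 places in Pink1, starting 161 and 98 bases before the start site, and at 1 in Bnip3, 99 bases before it, and it occurred in 6.42% of all windows. Every CACGTG holds ACGTG, the core of the hypoxia response element, which occurred in 19.3% of windows and in no other member. CCGGAAG lay 56 bases before the start of Tfam and also, on the other strand, in Polrmt, and 8.75% of windows had it. TGCGCA, part of the site of nuclear respiratory factor 1, was in Pink1 and Polrmt and in 7.24% of windows. The antioxidant response element core TGACNNNGC was in Map1lc3b and Ppargc1a and in 12.1% of windows. TGACG, the core of the cAMP response element, was in Pink1 and Ppargc1a and in 21.2% of windows, and the full TGACGTCA was in Ppargc1a alone among members and in 1.83% of windows. TGATGNAA, a form of the amino acid response element, was in no member and in 3.98% of windows, and the ERR element TCAAGGTCA in no member and in 0.433%.

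Pink1 (ENSRNOG00000015385), the sensor kinase of damaged mitochondria, varied more than any other member, with the highest library at 6.40 times the lowest. Control libraries measured 242.6, 249.7 and 384.4 CPM (292.2 ± 79.9), IDPN-3wk libraries 492.7, 488.0 and 177.8 CPM (386.2 ± 180.5) and IDPN-7wk libraries 77.0, 160.2 and 158.0 CPM (131.7 ± 47.4). Each IDPN-7wk library was below every library of the other groups, while Control and IDPN-3wk overlapped. By edgeR, the log2 fold change was 0.40 ± 0.39 (SE) at 3 weeks (adjusted p = 0.675), -1.15 ± 0.39 at 7 weeks (adjusted p = 0.132) and -1.55 ± 0.40 between exposures (adjusted p = 0.140), so no difference passed the test. The 95% interval of the 7-week fold was 0.246 to 0.825, and that of the fold between exposures 0.185 to 0.628.

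Pink1 was also compared within the library sets, whose part in its differences was not tested. Within the set with more genes, which holds a single IDPN-3wk library, the difference in log2(CPM + 2) was -0.46 at 3 weeks, -0.97 at 7 weeks and -0.50 between exposures. Within the set with fewer genes, with 1 Control and 2 IDPN-3wk libraries, the 3-week difference was 0.35, so its sign depended on the set. A fit with the set as a covariate gave -0.06 at 3 weeks (adjusted p = 0.948), -0.78 at 7 weeks (adjusted p = 0.168) and -0.72 between exposures (adjusted p = 0.740). Leaving out IDPN-3wk 3, the low library of its group, took the difference between exposures to -1.90 with an edgeR adjusted p of 0.0234. That library is the only one of its group in the set with more genes. Without it, exposure and library set coincide in this comparison and cannot be told apart. DESeq2 with all libraries gave a difference between exposures of -1.56 with an adjusted p of 0.0148. A fit of only the Control and IDPN-7wk libraries gave -1.15 with an adjusted p of 0.0428 at 7 weeks. The direction at 7 weeks was lower in all alternatives run, with log2 fold changes from -1.32 to -0.78.

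Atf3, the stress-response transcription factor, was measured beside Pink1 in the same libraries. It had 3.88, 5.95 and 6.58 CPM in Control, 5.64, 5.99 and 4.27 CPM in IDPN-3wk and 16.4, 11.1 and 12.7 CPM in IDPN-7wk libraries. It was a DEG at 7 weeks (log2 fold change 1.29 ± 0.29, edgeR adjusted p = 0.0290) and was level at 3 weeks in its estimate (-0.05, adjusted p = 0.967). The call for Atf3 was lost when Control 1, Control 2 or any IDPN-7wk library was left out (adjusted p = 0.106, 0.0823, 0.145, 0.0565 and 0.0898 in that order). A relation between the 2 genes across 9 libraries was not tested, because the groups and the library set both divide them.

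Among the receptors of the outer mitochondrial membrane, Bnip3 was lower in both exposed groups without overlap, and Bnip3l and Fundc1 were not. Bnip3 (ENSRNOG00000017243), a target of hypoxia signalling that binds LC3, measured 150.4, 129.0 and 162.1 CPM in Control (147.1 ± 16.8), 102.4, 111.9 and 114.8 CPM in IDPN-3wk (109.7 ± 6.52) and 120.9, 115.3 and 106.1 CPM in IDPN-7wk libraries (114.1 ± 7.48). All 6 exposed libraries were below the lowest Control. The log2 fold change was -0.42 ± 0.11 in IDPN-3wk rats (adjusted p = 0.0870, edgeR) and -0.37 ± 0.11 in IDPN-7wk rats (adjusted p = 0.0833), a decrease in the estimate of 25.4% and 22.4% that did not pass the adjusted threshold. By DESeq2 the adjusted p was 0.00895 at 3 weeks and 0.0188 at 7 weeks, with folds still under 1.5. IDPN-7wk and IDPN-3wk rats differed by 0.06 (adjusted p = 0.880, 95% interval of the fold 0.880 to 1.23). Within the set with more genes the differences in log2(CPM + 2) were -0.27 at 3 weeks and -0.29 at 7 weeks, and -0.59 at 3 weeks within the other set. RefSeq lists 8 pseudogenes of Bnip3 in the rat, and whether the annotation used for counting holds them was not checked. Reads that Bnip3 shares with any held there would have been divided between them by the estimation of counts.

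Bnip3l (ENSRNOG00000009820), known for clearing mitochondria from maturing red blood cells, measured 190.8 to 209.6 CPM in Control, 168.6 to 224.2 CPM in IDPN-3wk and 207.9 to 225.8 CPM in IDPN-7wk libraries. The groups overlapped in every comparison, and the log2 fold changes were -0.05, 0.12 and 0.16 with adjusted p of 0.883, 0.648 and 0.553 (edgeR). The 95% interval of its 7-week fold ran from 0.917 to 1.28. RefSeq lists 1 pseudogene of Bnip3l, with the same limit as for Bnip3. Fundc1 (ENSRNOG00000003470), a receptor used in hypoxia, measured 58.7, 70.9 and 44.4 CPM in Control, 46.4, 42.9 and 75.1 CPM in IDPN-3wk and 64.7, 62.3 and 67.8 CPM in IDPN-7wk libraries. Its values did not overlap between the library sets, while the groups overlapped in every comparison. The log2 fold changes of -0.08, 0.16 and 0.24 had edgeR adjusted p of 0.910, 0.782 and 0.692. With the set as a covariate these became 0.11, -0.03 and -0.14, so each changed sign. Within the set with more genes, the differences of Fundc1 in log2(CPM + 2) were 0.21, 0.00780 and -0.20, and within the other set the 3-week difference was 0.00693. Red blood cell genes (4 markers) summed to 224.6 to 273.8 CPM in Control, 318.5 to 402.3 CPM in IDPN-3wk and 201.7 to 296.7 CPM in IDPN-7wk libraries, with no marker called, and their part in the values of Bnip3l was not tested.

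The adaptor Sqstm1 (ENSRNOG00000003147) had the smallest p of the 10 genes. Its protein p62 carries ubiquitin-tagged cargo into autophagosomes, is itself digested there, and is also induced by oxidative stress. Control libraries were within 643.5 and 649.1 CPM (645.8 ± 2.91), IDPN-3wk libraries measured 758.8, 709.0 and 839.3 CPM (769.0 ± 65.8) and IDPN-7wk libraries 1011, 870.5 and 863.0 CPM (914.8 ± 83.3). Thus the 3 groups stood in the order Control, IDPN-3wk, IDPN-7wk with no overlap between any of them. The 7-week level was 1.417 times Control (95% interval 1.231 to 1.63, log2 fold change 0.50 ± 0.09, edgeR adjusted p = 0.00973), and it ranked 390 by p among all genes tested. RefSeq lists 1 pseudogene of Sqstm1, with which reads may have been divided. At 3 weeks the log2 fold change was 0.25 ± 0.09 (adjusted p = 0.211), and between exposures also 0.25 ± 0.09 (adjusted p = 0.264), neither of which passed. Within the set with more genes the 7-week difference in log2(CPM + 2) was 0.50. The adjusted p at 7 weeks stayed under 0.05 in every alternative run, from 9.26e-06 to 0.0457, and the log2 fold change ran from 0.42 to 0.54. In bulk tissue, more RNA per cell and more cells of a type that holds more of it cannot be told apart.

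Cell type markers that moved over the same groups are given here as measurements, and their part in the values of Sqstm1 and the other members was not tested. Macrophage markers (12 genes, led by Csf1r) summed to 85.2 to 142.2 CPM in Control, 61.3 to 155.1 CPM in IDPN-3wk and 254.0 to 327.4 CPM in IDPN-7wk libraries, and 1 of 12, the complement gene C1qb, was a higher DEG at 7 weeks (log2 fold change 1.70). HC markers summed to 1147 to 1468 CPM in IDPN-3wk and 1090 to 1270 CPM in IDPN-7wk libraries, below all Controls, and 3 and 7 of 13 were DEGs with lower levels, among them Otof, Tmc1 and Calb2 at both times. By their log2 fold changes, 2 of the 13 HC markers were positive at 3 weeks (Gfi1 and Cib2) and 0 at 7 weeks. Mean Gfi1 was 36.6, 53.7 and 14.9 CPM in Control, IDPN-3wk and IDPN-7wk libraries. Supporting cell markers, led by Otog, summed to 10890 to 13480 CPM at 3 weeks and 7065 to 10180 CPM at 7 weeks. Of the 13, 1 was a lower DEG at 3 weeks, 4 at 7 weeks and 1 between exposures. Schwann cell markers summed to 3092 to 4317 CPM at 3 weeks and 1264 to 2687 CPM at 7 weeks, when Mbp, Pmp22 and Ncmap were lower DEGs. Neuron markers (7 genes) summed to 110.1 to 128.5 CPM in Control, 66.7 to 79.3 CPM at 3 weeks and 64.1 to 81.1 CPM at 7 weeks, and Snap25 was a lower DEG at both. Mean Snap25 was 38.6, 12.9 and 10.7 CPM in Control, IDPN-3wk and IDPN-7wk libraries, and mean Nefl 38.2, 33.3 and 33.2 CPM. Of the 7 neuron markers, 2 had positive log2 fold changes at 3 weeks (Nefh and Tubb3) and 1 at 7 weeks (Nefh, 0.213 CPM on average in Control). Endothelial markers (6 genes) and fibroblast markers (6 genes) had sums that overlapped between Control and IDPN-7wk libraries, with Cdh5 a higher DEG and Flt1 and Lum lower DEGs. At 3 weeks the endothelial sum (369.8 to 407.8 CPM) was above all Controls (330.1 to 359.0 CPM), and the fibroblast sums overlapped. Of the 5 skeletal muscle markers, Myh4 was a higher DEG at 7 weeks (log2 fold change 4.48) while Acta1, Ckm and Tnnt3 were at or near 0, and no marker of any list was at 0 in all libraries.

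The other 2 genes that link cargo to the autophagosome showed no difference that passed the test. Optn (ENSRNOG00000017941), the adaptor that is recruited by PINK1 signalling, measured 112.7 to 131.6 CPM in Control, 119.0 to 138.3 CPM in IDPN-3wk and 121.6 to 146.4 CPM in IDPN-7wk libraries. Its log2 fold changes were 0.08, 0.15 and 0.07, with edgeR adjusted p of 0.793, 0.538 and 0.849. The intervals of its folds, 0.891 to 1.25 at 3 weeks and 0.935 to 1.31 at 7 weeks, left out a change of 1.5 in either direction. An overlapping long non-coding gene is annotated by RefSeq at Optn, and the strand used in counting is not given in the sources used here.

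Map1lc3b (ENSRNOG00000017905), which encodes the LC3 isoform that coats autophagosomes, measured 13.03, 14.35 and 13.73 CPM in Control (13.7 ± 0.661), 15.97, 10.47 and 15.37 CPM in IDPN-3wk (13.9 ± 3.02) and 16.32, 14.70 and 18.89 CPM in IDPN-7wk libraries (16.6 ± 2.11). IDPN-7wk libraries were all above Control, and the log2 fold change was 0.28 ± 0.21 (adjusted p = 0.548, edgeR). The 3-week value was 0.03 (adjusted p = 0.976), with IDPN-3wk 2 the lowest library of the series. RefSeq lists 3 pseudogenes of Map1lc3b, and its counts, 311 to 801 per library, are uncertain to that extent.

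The 3 biogenesis genes showed no shared direction, and none passed the test. Ppargc1a (ENSRNOG00000004473), the coactivator at the head of the pathway, measured 37.5, 30.8 and 27.8 CPM in Control (32.0 ± 4.97), 20.1, 36.5 and 25.7 CPM in IDPN-3wk (27.5 ± 8.32) and 21.7, 30.1 and 27.7 CPM in IDPN-7wk libraries (26.5 ± 4.31). RefSeq annotates the pseudogene Rpl36-ps6 within the span of Ppargc1a. The groups overlapped throughout, with log2 fold changes of -0.22 at 3 weeks and -0.28 at 7 weeks (edgeR adjusted p = 0.702 and 0.601). The interval of the 7-week fold, 0.578 to 1.18, covers both a decrease to 0.578 of the Control level and an increase to 1.18 times it.

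Tfam (ENSRNOG00000000613), which packages mitochondrial DNA, had its highest levels at 3 weeks, by a difference that did not pass the test of edgeR. It measured 52.1, 55.7 and 65.6 CPM in Control (57.8 ± 6.98), 69.7, 87.5 and 75.5 CPM in IDPN-3wk (77.5 ± 9.10) and 68.1, 61.6 and 57.6 CPM in IDPN-7wk libraries (62.4 ± 5.30). IDPN-3wk libraries were above every library of both other groups. The log2 fold change was 0.42 ± 0.13 at 3 weeks (edgeR adjusted p = 0.159), 0.11 at 7 weeks (adjusted p = 0.741) and -0.31 between exposures (adjusted p = 0.338). By DESeq2 the 3-week adjusted p was 0.0413. The 3-week difference in log2(CPM + 2) was 0.47 within the set with more genes and 0.24 within the set with fewer.

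Polrmt (ENSRNOG00000024879), the polymerase that transcribes mitochondrial DNA, measured 46.7, 55.5 and 59.9 CPM in Control (54.0 ± 6.69), 53.6, 34.5 and 52.7 CPM in IDPN-3wk (46.9 ± 10.8) and 58.9, 55.5 and 54.7 CPM in IDPN-7wk libraries (56.4 ± 2.23). Its IDPN-7wk libraries lay inside the Control range and above every IDPN-3wk library. The log2 fold changes were -0.20, 0.06 and 0.26 with edgeR adjusted p of 0.635, 0.906 and 0.554. Leaving out single libraries moved the 7-week value from -0.03 to 0.14.

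No gene of 3 wider lists around the 10 genes was a DEG. Over all genes tested, 49.95% had a positive log2 fold change at 3 weeks, 51.14% at 7 weeks and 51.07% between exposures. Of 22 further mitophagy regulators measured, 13 had positive and 9 negative log2 fold changes at 3 weeks, 14 and 8 at 7 weeks, and 14 and 8 between exposures. Their medians were 0.03, 0.10 and 0.10, and 3, 3 and 1 had an unadjusted p under 0.05 by edgeR, where the shares over all genes were 15.8%, 19.3% and 13.8%. Of 33 core autophagy genes, 18 were positive at 3 weeks and 21 in each of the other comparisons, with medians of 0.03, 0.06 and 0.07, and 1, 3 and 3 had an unadjusted p under 0.05. Of 21 genes for mitochondrial DNA expression and maintenance, 13, 11 and 11 were positive, with medians of 0.11, 0.02 and 0.05, and 0 had even an unadjusted p under 0.05 by edgeR in any comparison. By edgeR, no gene of these 3 lists had an adjusted p under 0.05, and DESeq2 was not run on the lists.

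Among 14 further regulators of biogenesis, 1 was a DEG at 7 weeks, when 5.13% of all genes were. Esrrg, an orphan nuclear receptor of the ERR family that works with PGC-1α on genes of oxidative metabolism, measured 12.5, 7.30 and 10.7 CPM in Control (10.1 ± 2.62), 2.54, 5.56 and 2.71 CPM in IDPN-3wk (3.60 ± 1.70) and 2.994, 1.501 and 2.329 CPM in IDPN-7wk libraries (2.28 ± 0.748). All exposed libraries were below all Controls. It fell by 2.16 on the log2 scale at 7 weeks (SE 0.44, edgeR adjusted p = 0.0170), and its 3-week value was -1.496 (adjusted p = 0.119). The 7-week call was lost without Control 1, IDPN-7wk 2 or IDPN-7wk 3 (adjusted p = 0.0790, 0.0731 and 0.0748), and DESeq2 gave an adjusted p of 0.0134 at 3 weeks. The other 13 regulators were not DEGs, and the list's medians were 0.13, 0.09 and -0.13. The levels of Esrrg were low. Marker sums of HC, supporting cells and neurons were below all Controls in both exposed groups, and Schwann cell sums were so only at 7 weeks. The part of these cell types in the levels of Esrrg was not tested.

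The 13 mRNAs encoded by mitochondrial DNA itself, which TFAM and POLRMT serve to transcribe, were lower in IDPN-7wk rats. They encode subunits of the complexes of oxidative phosphorylation. The sum was 48260, 55400 and 50770 CPM in Control, 50390, 46360 and 47840 CPM in IDPN-3wk and 26700, 37160 and 33400 CPM in IDPN-7wk libraries. Every IDPN-7wk library was below every other library, whereas Control and IDPN-3wk overlapped. Of the 13 mRNAs, 7 were DEGs with lower levels at 7 weeks, where 3.13% of all genes were lower DEGs, and 10 had an adjusted p under 0.05. For each of the 13 the groups did not overlap, as for 34.3% of all genes, and the median log2 fold change was -0.60.

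The smallest adjusted p among them belonged to subunits of cytochrome c oxidase, NADH dehydrogenase and ATP synthase. Mt-co3 had 4127 ± 340.3 CPM in Control and 2246 ± 269.1 CPM in IDPN-7wk libraries (log2 fold change -0.88 ± 0.10, edgeR adjusted p = 0.000926). Mt-co2 went from 2978 ± 139.9 to 1773 ± 230.9 CPM (-0.75 ± 0.11, adjusted p = 0.0032). Mt-nd4 went from 4475 ± 407.4 to 2694 ± 449.9 CPM (-0.73 ± 0.12, adjusted p = 0.00651), and Mt-atp6 from 9533 ± 673.0 to 6272 ± 842.0 CPM (-0.60 ± 0.10, adjusted p = 0.0076). The 3 mRNAs that missed an adjusted p of 0.05 were Mt-nd3, Mt-nd4l and Mt-atp8, with log2 fold changes of -0.58, -0.58 and -0.59. At 3 weeks, 0 of the 13 were DEGs by edgeR and by DESeq2, 2 had an unadjusted p under 0.05, and the median was -0.10.

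The 2 exposures also differed from each other in these mRNAs. All 13 were negative in IDPN-7wk against IDPN-3wk, with a median of -0.51, and 10 did not overlap, as for 21% of all genes. Mt-co3 (-0.74 ± 0.10, edgeR adjusted p = 0.0118) and Mt-nd5 (-0.77 ± 0.13, adjusted p = 0.0310) were DEGs, where 0.135% of all genes were lower DEGs. The 7-week count of 7 became 4 without Control 2, 5 without IDPN-7wk 1 or IDPN-7wk 3 and 10 without IDPN-7wk 2. The count of 2 between exposures ran from 0 to 5 over the alternatives, with 5 without IDPN-7wk 2, 3 without IDPN-3wk 3 and 1 without IDPN-3wk 1, IDPN-3wk 2 or IDPN-7wk 3. Without IDPN-3wk 3, exposure and library set coincide in this comparison. IDPN-7wk 1 had the lowest mitochondrial sum, the lowest Schwann cell sum (1264 CPM), the lowest supporting cell sum (7065 CPM) and the lowest Pink1 level, and the part of these cell types in the mitochondrial sum was not tested.

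**Figure D4:**
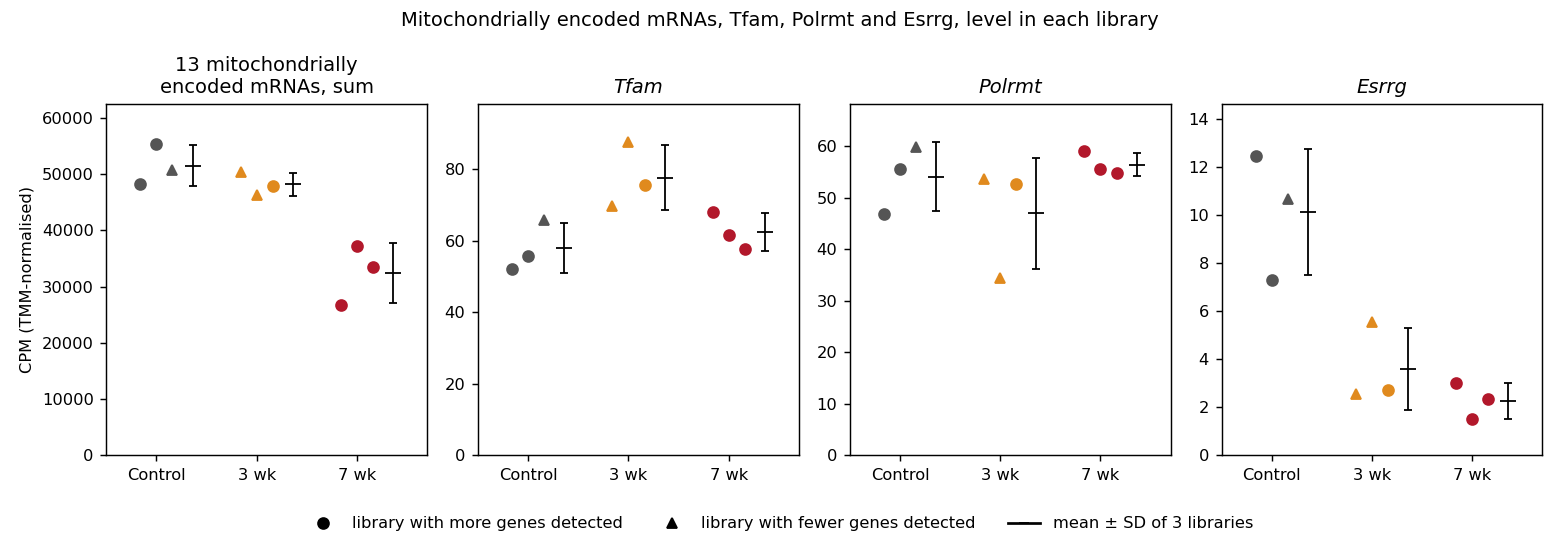
Summed level of the 13 mitochondrially encoded mRNAs and levels of Tfam, Polrmt and Esrrg (CPM after TMM normalization, y axes from 0) in the 9 libraries, with mean ± SD per group; triangles are the libraries with fewer genes detected. The IDPN-7wk sums (26700 to 37160 CPM) lie below all others, while Tfam and Polrmt in IDPN-7wk libraries overlap Control and Esrrg is below Control in both exposed groups.

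At 7 weeks, Tfam and Polrmt overlapped Control while the mitochondrial mRNAs did not. The sum of the 13 mRNAs averaged 51480 CPM in Control and 32420 CPM in IDPN-7wk rats, Tfam 57.8 and 62.4 CPM, Polrmt 54.0 and 56.4 CPM, and the 21 genes of mitochondrial DNA expression and maintenance 553.5 and 549.8 CPM in sum. The 95% intervals of the 7-week folds were 0.879 to 1.33 for Tfam and 0.797 to 1.37 for Polrmt. The summed level of the 10 members was 1552 to 1737 CPM in Control, 1739 to 1868 CPM in IDPN-3wk and 1700 to 1800 CPM in IDPN-7wk libraries.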

How the data were processed

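RNA was sequenced from 9 rats, 3 per group, with SMARTseq2 libraries, which copy polyadenylated RNA and amplify it by PCR. The submitters' processing notes name STAR 2.5.3a and RSEM 1.3.0. The deposited values are estimated counts per gene (expected counts), which the authors estimated with RSEM after mapping to a rat genome build and wrote as whole numbers without normalization. RSEM divides reads that fit several genes between them. The strand used in counting is not given in the sources used here. All columns of the table were assigned to a sample by its label. The labels give no replicate numbers, so replicates were numbered in accession order. No libraries of a group agreed within sampling noise (lowest chi-square per gene 18.7).

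The software was edgeR 4.0.16, DESeq2 1.42.0 and limma 3.58.1, run in R 4.3.3. Genes kept by filterByExpr were normalized by TMM and tested by edgeR's quasi-likelihood F-test (robust), with all 9 libraries in 1 model of group means (residual degrees of freedom 6, median prior degrees of freedom 4.07). DEG thresholds are those of the study's methods. The study's own test was DESeq2, so its calls and the edgeR calls here were not made by the same test. Standard errors and 95% intervals come from the edgeR fit. Differences within a library set are of log2(CPM + 2) and have no test. Of 32883 entries, 4258 share a symbol with another, and each member had 1 entry. The pipeline was tested on simulated data.

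The 10 genes and all lists (mitophagy regulators, core autophagy, biogenesis regulators, mitochondrial DNA expression and maintenance, mitochondrially encoded mRNAs, cell type markers) were chosen with earlier results of these data known, so p-values were adjusted over all genes and lists are given by counts and medians. Named are all 10 genes, Atf3, and the DEGs of each pathway list, at most 4 per comparison and direction by smallest adjusted p. Of the markers that lead a list, are at or near 0 or are DEGs, only some are named. Alternatives were DESeq2, RLE size factors, no filter, a minimum of 10 counts per library, the 2 compared groups alone, a fold above 2 or no fold threshold, the library set as a covariate, no mitochondrial genes, and each library left out. The fit of the libraries with more genes detected was added after the data were seen, as were the mitochondrially encoded Mt-nd3, Mt-nd4l and Mt-atp8 as named genes. Promoter windows are from RefSeq (GRCr8), which is not the build of the counts. 1 cell type marker is not reported here. Some list genes and gene positions in the authors' build were not analysed here.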

Additional observations from a re-analysis of the deposited data

Results flagged for a closer look

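Among the 10 genes and the 13 mitochondrially encoded mRNAs, 2 differed between the exposure times by the direct test of IDPN-7wk against IDPN-3wk. That test uses the same fit as the comparisons with Control. Of the 13 supporting cell markers, 1 was also a lower DEG in it. Mt-nd5, a subunit of NADH dehydrogenase encoded by mitochondrial DNA, had a log2 difference of -0.77 (edgeR adjusted p = 0.0310), with all 3 IDPN-7wk libraries below all 3 IDPN-3wk libraries. Mt-co3, a subunit of cytochrome c oxidase, had a log2 difference of -0.74 (adjusted p = 0.0118), also without overlap. Neither was called with the library set as a covariate (0 of the 13 mitochondrially encoded mRNAs were). The libraries with more genes detected also gave 0, but hold a single IDPN-3wk library, which the fit assumes to vary like the other groups. None of the 10 mitophagy and biogenesis genes differed between exposures past this threshold by edgeR.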

How the results depend on the processing

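Of 504 log2 fold changes recomputed for the 10 genes, Esrrg and Atf3, 459 kept their direction and their side of an adjusted p of 0.05, 29 changed sign, 8 lost the threshold and 8 passed it. The number of the 10 genes that were DEGs was 0 in each comparison. At 7 weeks it became 1 without a fold threshold (Sqstm1) and 1 with only the libraries of the 2 groups (Pink1), where 2 had an adjusted p under 0.05. Between exposures it became 1 with DESeq2, and 0 to 1 with single libraries left out, as did the number with an adjusted p under 0.05, because of Pink1 without IDPN-3wk 3. Without that library, exposure and library set coincide in the comparison between exposures. DESeq2 gave 2, 2 and 1 genes with an adjusted p under 0.05 at 3 weeks, at 7 weeks and between exposures. The numbers of DEGs over all genes were 256, 796 and 75 with edgeR and 817, 1393 and 584 with DESeq2. With only the libraries of the 2 groups they were 118, 1249 and 46, with a fold above 2 they were 159, 480 and 56, and with single libraries left out 75 to 439, 432 to 600 and 39 to 445. The libraries with more genes detected gave 1563 DEGs at 7 weeks, at least 10 counts gave 123 between exposures, and the covariate 37 there. The mitochondrially encoded mRNAs called lower at 7 weeks were 7, 0 with a fold above 2 and 11 among the libraries with more genes.

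With the library set as a covariate, the sign changed for Pink1 (-0.0578), Bnip3l (0.00162) and Fundc1 (0.11) at 3 weeks, and for Fundc1 at 7 weeks (-0.0319) and between exposures (-0.14). The libraries with more genes hold a single IDPN-3wk library (replicate 3), assumed in the fit to vary like the other groups, so the changes of sign at 3 weeks and between exposures rest on it. There it changed for Pink1 (-0.47), Bnip3l (0.16), Fundc1 (0.21) and Polrmt (0.0466) at 3 weeks, for Fundc1 at 7 weeks (-0.000525), and between exposures for Bnip3 (-0.0135), Bnip3l (-0.0562), Fundc1 (-0.21), Optn (-0.0653) and Ppargc1a (0.037). With single libraries left out, the 3-week values ran from -0.0836 to 0.19 for Map1lc3b, -0.38 to 0.0874 for Fundc1, -0.24 to 0.11 for Atf3 and -0.17 to 0.0404 for Bnip3l. They ran from -0.0317 to 0.14 for Polrmt at 7 weeks, and between exposures from -0.23 to 0.21 for Ppargc1a and -0.00673 to 0.14 for Optn. All these values had an adjusted p above 0.05. The causes were not tested. No paired analysis was possible because the labels give no replicate numbers, and the code in the titles is shared across groups only by IDPN-3wk 1 and IDPN-7wk 1. With 3 libraries per group, the wide intervals of Pink1, Ppargc1a, Fundc1 and Map1lc3b limit what could be detected.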
